A study of Rattus norvegicus with 47 samples.

Results

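Collagens and laminins form the fibres and sheets of the extracellular matrix, and 33 of their genes were measured here in rat striatum and cerebellum, out of 15319 genes listed in the count tables. They were taken by symbol (Col, a number, a and a number, or Lama, Lamb or Lamc and a number) with a mean of at least 0.5 CPM (counts scaled to a common library total) in either region. The set holds 25 collagen and 8 laminin genes. The tables list 35 symbols of this form, and the 2 below the limit were Col6a4, with a mean of 0.498 CPM in striatum, and Col26a1, with 0.335 CPM in cerebellum. Just above the limit were Col17a1, at 0.827 CPM in striatum, and Col4a4, at 1.13 CPM in striatum. The reference annotation has 55 symbols of this form, so the other 20, among them Col4a2, Col6a1, Lama2 and Lamb1, were not analysed here.

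The rats were Sprague-Dawley males and females, either exposed to PCB52 (a polychlorinated biphenyl) or assigned to a sham group, and the study asked how inhaled PCB52 alters gene expression in these brain regions. PCB52 rats breathed air passed over PCB52-coated beads in a nose-only apparatus for 4 h each day over 28 days. Males entered their groups when 39 days old, females when 42 days old, after training in the apparatus. The concentration reached and the handling of the sham rats during exposure were not stated in the descriptions. RNA came from tissue punches, so a punch is a mixture of cells, and fewer cells of a type cannot be told apart from less RNA per cell. Striatum gave 6 sham females, 6 PCB52 females, 4 sham males and 6 PCB52 males. Cerebellum gave 6 sham females, 6 PCB52 females, 5 sham males and 5 PCB52 males. Each library was 1 animal, and libraries are named below by group and animal number.

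Library totals were 5684508 to 8914523 counts in striatum and 6524400 to 15865054 in cerebellum. The region labels matched the marker genes: all 10 striatal projection neuron markers were higher in sham striatum and all 10 cerebellar neuron markers were higher in sham cerebellum. Some libraries stood apart and are named where they touch a result. Xist, expressed from the inactive X chromosome of females, and the Y-linked Eif2s3y were both above 3 CPM in cerebellum sham females 8 and 10, cerebellum sham males 9 and 11 and striatum sham male 3, which goes against a single sex in each. The choroid plexus marker list (mean log2 CPM of its genes) reached 8.01 in striatum PCB52 female 20 and 5.74 in cerebellum sham male 1, against region medians of 1.46 and 1.30. The cerebellar neuron marker list reached 6.44 in striatum PCB52 female 22, against a striatal median of 3.23. A list of cytosolic ribosomal protein genes, chosen after seeing the data, had a mean above 9 in striatum sham female 12 (9.19) and in cerebellum PCB52 females 16 (9.26) and 20 (9.49) and PCB52 males 15 (9.36) and 23 (9.91), against region medians of 8.32 and 8.37.

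The members with the highest mean CPM over all libraries were Col11a2 (387.5), Lamb2 (75.9) and Col18a1 (74.3) in striatum, and Col18a1 (94.9), Col9a2 (77.8) and Col27a1 (63.0) in cerebellum. CPM also depends on transcript length, so these means are not compared between genes.

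Basement membranes are sheets of laminin and type IV collagen. In the brain they surround blood vessels and lie under the pia at the surface. A laminin is a trimer of an alpha, a beta and a gamma chain that cells bind through integrins and dystroglycan. Fibrillar collagens (types I, II, III, V, XI and XXVII here) are built mainly by fibroblasts of the meninges and vessel walls and by cartilage and bone elsewhere, and the FACIT collagens (types IX, XIV and XVI here) sit on the surface of fibrils.

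The start regions of 5 members are printed to show the genes on which the region results turn: Col11a2, among the members highest in striatum relative to cerebellum, Col23a1, the member highest in cerebellum relative to striatum, Col1a2, whose region call depended on the libraries used, and the neighbours Col4a3 and Col4a4. Each is a window from 250 bases before to 50 after the annotated start, from RefSeq on build GRCr8, written 5′ to 3′ along the gene's strand. The table of such windows held 26 of the 33 members. Capitals mark matches on either strand to the letters GGGCGG (a GC box), CCAAT or TATAAA. The Col11a2 window is chr20:4817599-4817898 on the minus strand, Col23a1 chr10:36050077-36050376 plus, Col1a2 chr4:33518307-33518606 plus, Col4a3 chr9:91323740-91324039 plus and Col4a4 chr9:91323528-91323827 minus.
Col11a2: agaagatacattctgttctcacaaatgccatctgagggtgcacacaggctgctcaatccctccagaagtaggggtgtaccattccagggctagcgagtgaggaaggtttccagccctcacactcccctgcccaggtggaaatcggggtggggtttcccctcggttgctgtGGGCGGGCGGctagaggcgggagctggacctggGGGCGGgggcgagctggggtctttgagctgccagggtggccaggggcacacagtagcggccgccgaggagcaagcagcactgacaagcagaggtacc
Col23a1: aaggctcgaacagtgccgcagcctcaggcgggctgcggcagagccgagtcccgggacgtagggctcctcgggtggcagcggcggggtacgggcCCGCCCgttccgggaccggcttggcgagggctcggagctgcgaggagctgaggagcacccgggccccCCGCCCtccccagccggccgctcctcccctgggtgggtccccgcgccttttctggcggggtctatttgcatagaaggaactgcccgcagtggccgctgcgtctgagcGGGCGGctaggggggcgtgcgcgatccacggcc
Col1a2: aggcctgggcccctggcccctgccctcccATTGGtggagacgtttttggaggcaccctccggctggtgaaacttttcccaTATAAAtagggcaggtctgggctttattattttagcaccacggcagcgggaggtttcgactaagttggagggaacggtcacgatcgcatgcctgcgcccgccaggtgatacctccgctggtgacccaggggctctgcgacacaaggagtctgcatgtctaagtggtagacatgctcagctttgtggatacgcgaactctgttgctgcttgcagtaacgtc
Col4a3: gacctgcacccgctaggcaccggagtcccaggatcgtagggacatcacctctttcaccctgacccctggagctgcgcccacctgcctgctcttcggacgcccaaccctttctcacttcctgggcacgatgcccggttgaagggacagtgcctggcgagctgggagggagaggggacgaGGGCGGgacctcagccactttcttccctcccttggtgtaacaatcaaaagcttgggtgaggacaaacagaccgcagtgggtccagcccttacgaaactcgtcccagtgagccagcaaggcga
Col4a4: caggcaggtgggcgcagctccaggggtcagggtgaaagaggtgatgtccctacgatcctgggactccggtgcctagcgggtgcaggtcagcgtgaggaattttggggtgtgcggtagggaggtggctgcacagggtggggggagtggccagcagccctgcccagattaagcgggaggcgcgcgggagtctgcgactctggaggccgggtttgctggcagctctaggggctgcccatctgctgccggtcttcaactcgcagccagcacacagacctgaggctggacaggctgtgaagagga
Col4a3 and Col4a4 encode chains of the same type IV collagen trimer, known from the kidney filter. Their start sites lie 413 bases apart on opposite strands, and their windows overlap. The Col11a2 and Col23a1 windows each hold 3 GGGCGG matches, although the genes differed between the regions in opposite directions. Col1a2, the second chain of type I collagen, has a TATAAA match and a CCAAT match, and no GGGCGG. Among the 26 member windows, 15 (57.7%) held GGGCGG, 7 (26.9%) CCAAT and 4 (15.4%) TATAAA. Over all 33469 windows of the table the shares were 33.1%, 37.5% and 14.2%. The member windows had a median G+C content of 62.7%, against 51.7% over all windows. These matches describe letters only.

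Every laminin measured was higher in sham striatum than in sham cerebellum, and the collagens went in both directions. In all, 25 of 32 members differed, beside 69.8% of all genes, so differing as such does not set the members apart. Of the 32 members tested, 19 were higher in striatum, beside a background of 34.3% of all 12446 genes tested, and 6 were lower, beside 35.5%, at an adjusted p of 0.05 (edgeR's quasi-likelihood test, two-sided, Benjamini-Hochberg adjustment over all genes). The member left out by the filter on low counts was Col8a1. The median log2 fold change, striatum over cerebellum, was 0.81 over the members, 1.30 over the 8 laminins and 0.45 over the 24 collagens tested, and -0.04 over all genes. Groups of genes that mark vessels moved the same way. All 14 endothelial markers (median 1.16) and 10 of 12 pericyte and smooth muscle markers (median 0.90) were higher in striatum, as were 8 of 8 oligodendrocyte markers (median 0.97). Their part in the laminin difference was not tested.

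Among the laminin alpha chains, Lama4 and Lama5 are those of vessel walls. Lama4 ran from 9.22 to 24.7 CPM (median 13.98) in the 10 sham striata and from 3.20 to 10.3 (median 5.43) in the 11 sham cerebella, a log2 fold change of 1.42 ± 0.17 (SE of the fit). Lama5 ran from 6.59 to 22.4 CPM (median 9.48) and from 1.84 to 8.62 (median 4.26), a log2 fold change of 1.53 ± 0.29. The ranges overlapped slightly for both genes. Lama1, the alpha chain of embryonic and pial basement membranes, had the smallest laminin difference (0.55 ± 0.25, edgeR adjusted p = 0.0455). Of the partner chains, Lamb2 differed by 1.05 ± 0.17 and Lamc1, the gamma chain of most laminins, by 1.26 ± 0.21. Lamc3 differed by 1.34 ± 0.19. Lamb3, a beta chain of epithelial basement membranes, differed by 0.77 ± 0.20 (edgeR adjusted p = 0.000608).

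Both measured chains specific to type XI collagen, a fibrillar type best known from cartilage, were higher in striatum. Col11a2 ran from 130 to 583 CPM (median 307) in sham striatum and from 17.9 to 54.5 (median 33.3) in sham cerebellum, so the groups did not overlap. Its log2 fold change was 3.34 ± 0.20 (edgeR adjusted p = 3.81e-18), and it lay between 3.23 and 3.44 under every alternative processing run. Col11a1, the other type XI chain, ran from 13.1 to 39.4 CPM (median 27.2) and from 2.24 to 5.65 (median 3.74), again without overlap (2.98 ± 0.23, edgeR adjusted p = 4.07e-15). Col2a1, which supplies the third chain of type XI in cartilage, did not pass the test (0.36 ± 0.32, edgeR adjusted p = 0.314). Its values ran from 0.571 to 5.38 CPM in striatum and 0.579 to 3.57 in cerebellum.

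In types V and IX, chains of 1 collagen type went in opposite directions. In type V, which shares its fibrils with type I, Col5a3 was higher in striatum (17.1 to 74.9 CPM, median 49.3) than in cerebellum (6.94 to 14.5, median 9.83), by 2.32 ± 0.20 on the log2 scale. Col5a2 was higher by 0.55 ± 0.16. Col5a1 was lower in striatum (3.0 to 7.45 CPM, median 5.96) than in cerebellum (8.28 to 16.2, median 10.8), with no overlap between the groups (-1.07 ± 0.24, edgeR adjusted p = 0.000179).
Type IX showed the same opposite pattern. This FACIT collagen coats fibrils in cartilage. Col9a2 ran from 14.4 to 33.4 CPM in sham striatum and from 55.2 to 113 in sham cerebellum (-1.87 ± 0.13, edgeR adjusted p = 2.08e-16). Col9a1 was at 0.586 to 2.47 CPM in sham striatum, from 4 to 22 reads a library, and at 0 to 3 reads in the sham cerebella (3.31 ± 0.46, edgeR adjusted p = 3.15e-08). At 0 to 3 reads this fold change depends on the prior count, and a count of 0 allows up to 3 reads, or 0.355 to 0.446 CPM in those libraries.

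Col23a1, a transmembrane collagen, was the member with the largest difference in the other direction. Its values were 1.69 to 4.26 CPM (median 3.57) in sham striatum and 23.8 to 36.2 (median 29.3) in sham cerebellum (-3.16 ± 0.24, edgeR adjusted p = 6.66e-15). The other transmembrane collagens, Col13a1 and Col17a1, did not pass (-0.09 ± 0.25 and 0.20 ± 0.35). Col7a1, which forms the anchoring fibrils of skin, was at 2.53 to 20.98 CPM in striatum and 0.790 to 2.97 in cerebellum (2.71 ± 0.30, edgeR adjusted p = 2.01e-10). The multiplexins carry fragments that act on vessels. One of them, Col15a1, was higher in striatum (1.39 ± 0.22), and the other, Col18a1, was lower (-0.38 ± 0.12, edgeR adjusted p = 0.00588). Without the libraries holding transcripts of both sexes, the Col18a1 difference was -0.29 (edgeR adjusted p = 0.0826).
Basement membrane type IV chains were higher in striatum for Col4a1 (1.03 ± 0.22) and Col4a3 (1.26 ± 0.36). Col4a4, the head-to-head neighbour of Col4a3 printed above, had a log2 fold change of 0.69 ± 0.32 that did not pass (edgeR adjusted p = 0.0569). Cerebellum sham male 1, the library with choroid plexus markers, held the highest cerebellar Col4a4 value at 2.38 CPM, and without it the difference was 0.98 (edgeR adjusted p = 0.00582). Further members higher in striatum were Col14a1 (1.89 ± 0.35) and Col16a1 (0.85 ± 0.19). Col27a1, a fibrillar collagen of cartilage, was at 10.1 to 57.6 CPM in striatum and 30.1 to 134 in cerebellum (-1.05 ± 0.28, edgeR adjusted p = 0.00111).

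**Figure D1:**
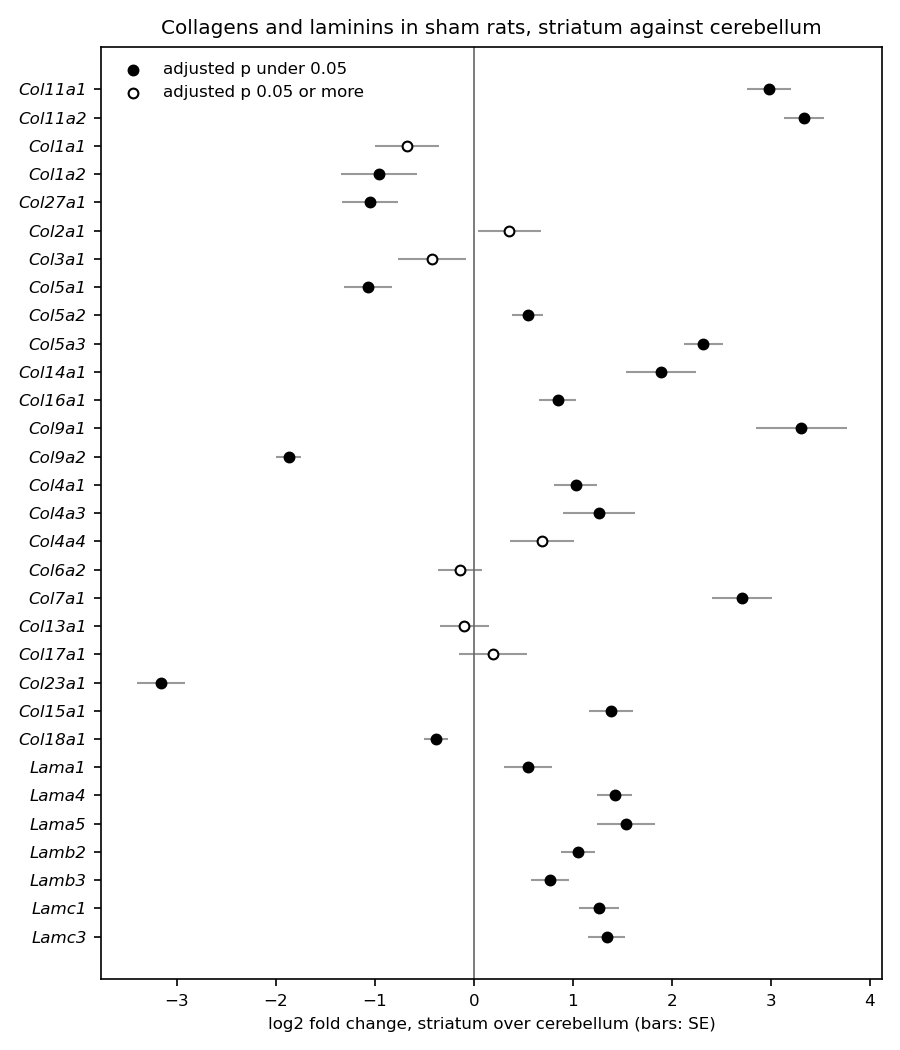
Log2 fold change of each tested member, sham striatum over sham cerebellum (10 and 11 libraries), with the SE of the fit as bars. Filled points passed an adjusted p of 0.05. A laminin is not drawn. The 7 laminins drawn lie to the right of 0, and Col23a1 at -3.16 and Col9a2 at -1.87 lie farthest to the left.

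The type I and III chains, the main products of fibroblasts, were spread more widely among cerebellar than among striatal sham libraries. Col1a2 ran from 15.7 to 47.7 CPM (median 27.9) in sham striatum and from 16.8 to 122 (median 45.1) in sham cerebellum, with overlap (-0.96 ± 0.38, edgeR adjusted p = 0.0253). Its call was lost without cerebellum sham male 9 (-0.67, edgeR adjusted p = 0.114) or sham female 6 (-0.84, edgeR adjusted p = 0.054), and with the animal as a replicate block (-0.77, edgeR adjusted p = 0.09). Without the 5 libraries holding transcripts of both sexes it was -0.18 (edgeR adjusted p = 0.726). Col1a1, the partner chain, had a log2 fold change of -0.68 ± 0.33 (edgeR adjusted p = 0.0634) and 0.03 without those libraries. Col3a1 had -0.42 ± 0.34, and 0.23 without them, and Col6a2 -0.14 ± 0.22, and 0.16 without them.
Values of several of these genes were high in libraries with high markers of meningeal fibroblasts, the cells of the brain's covering. The 6 cerebellar libraries with the highest meningeal fibroblast list mean were PCB52 female 24, PCB52 males 15 and 23, sham male 9 and sham females 6 and 8. The same 6 held the 6 highest cerebellar values of Col1a2, 89.7 to 129 CPM against 12.5 to 79.01 in the other libraries, and 5 of the 6 highest for Col1a1 and for Col3a1. They held 3 of the 6 highest for Col6a2, Lama1 and Lamc3 and no more than 2 for any other member tested there. In striatum the shared number was 5 of 6 for Col1a2, 4 for Col1a1 and Col6a2 and 3 for Col3a1, Col4a1, Col9a1, Col13a1 and Lama4. For Col11a2 it was 1 of 6 in each region. Cerebellar libraries holding transcripts of both sexes had meningeal list means of 3.755 to 4.456, against a cerebellar median of 2.94. They were sham females 8 and 10 and sham males 9 and 11. The list mean ran from 1.95 to 4.69 in cerebellum and from 2.80 to 4.98 in striatum. Of its markers Dcn ran from 2.53 to 18.7 CPM in cerebellum, Igf2 from 17.4 to 216, and of the 14 markers in the tables only Slc47a1 was at 0 in any library. The part of these cells in the type I and III values was not tested.

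**Figure D2:**
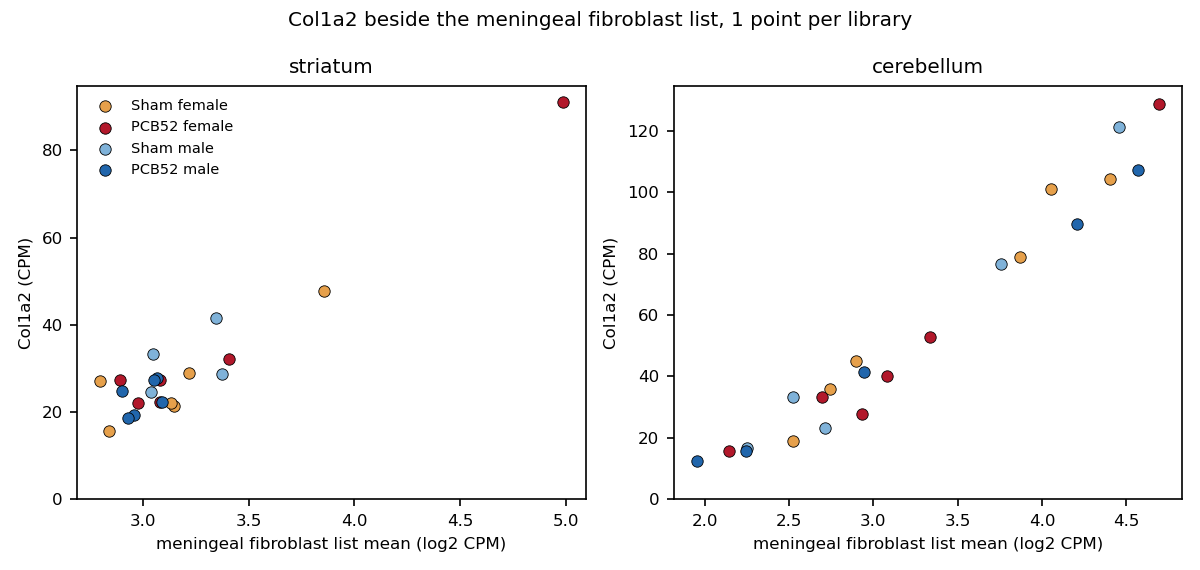
Col1a2 (CPM) against the mean log2 CPM of the meningeal fibroblast markers, 1 point per library, coloured by group, striatum left and cerebellum right. The libraries with the highest list means, reaching 4.98 in striatum and 4.69 in cerebellum, also held the highest Col1a2 values, 91.0 and 129 CPM.

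Both regions were measured in 21 animals of all groups, and 15 members were higher in striatum in 21 of 21, among them Col11a2, Col11a1, Col5a3, Col4a1, Col4a3, Lama4, Lama5, Lamb2, Lamc1 and Lamc3. Col23a1 and Col9a2 were higher in cerebellum in 21 of 21. Col5a1, Col27a1 and Col18a1 were higher in cerebellum in 16 of 21, and Col1a2 in 14 of 21. Col3a1 and Col13a1, with fitted values below 0 that did not pass, were higher in striatum in 11 and 12 of 21.

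PCB52 was compared with sham within each sex and region. No collagen or laminin passed the adjusted threshold in any of these comparisons, and no gene of any kind did (0% of the genes tested in each, by edgeR). DESeq2 and limma with voom also called 0 members, and DESeq2 called 23 genes in all in the female striatum. The female striatum had the largest median difference among the members.
Of 31 members tested in female striatum, 29 had a positive log2 fold change, PCB52 over sham, with a median of 0.49 against 0.00 over all 12142 genes (-0.002 before rounding). At an unadjusted p under 0.05, 15 members were higher and 0 lower, where 7.12% of all genes were higher. All 23 collagens tested and 6 of 8 laminins had a positive value. By class, 6 of 10 fibrillar collagens, 2 of 4 FACIT collagens, 1 of 3 basement membrane type IV chains, Col6a2, Col7a1, Col23a1 and the laminin chains Lama5, Lamb2 and Lamc1 were among the 15. The count at an unadjusted p under 0.05 was 10 without PCB52 female 16 or 20, 13 without sham female 12 and 20 without PCB52 female 18. Members moved together within libraries, so counts of members, here and below, are not counts of separate observations. Sham females 2, 4, 6, 8 and 12 lay below the region's median for 23, 24, 28, 20 and 25 of 31 members. Sham female 10 lay above it for 27. PCB52 females 14, 16, 20, 22 and 24 lay above it for 26, 26, 27, 17 and 24. PCB52 female 18 lay below it for 23.

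Col5a1 had the lowest p of the members. It ran from 3.0 to 7.45 CPM (median 6.20) in sham females and from 5.83 to 25.2 (median 13.1) in PCB52 females, a log2 fold change of 1.21 ± 0.32 (edgeR adjusted p = 0.222, from 0.0586 to 0.516 over its alternatives). PCB52 females 16 and 18, at 7.72 and 5.83 CPM, lay within or near the sham range, and PCB52 female 14 was highest. That library also had a cortical excitatory neuron list mean of 6.06, against a striatal median of 4.34. PCB52 male 19 had a mean of 5.955 with Col5a1 at 11.55 CPM, and sham female 6 had 5.503 with 5.425 CPM. PCB52 female 20 had 3.689 with 15.99 CPM. A part of cortical cells in these values was not tested. Col27a1 ran from 10.1 to 45.2 CPM (median 28.1) in sham females and from 40.2 to 93.9 (median 60.7) in PCB52 females (1.03 ± 0.32, edgeR adjusted p = 0.281). Its groups overlapped through PCB52 females 18 and 22 and sham females 8 and 10.
Col11a2, the striatum-high type XI chain, was the only member whose groups did not overlap, as was the case for 0.552% of all genes. Sham females 2, 4, 6, 8, 10 and 12 had 309, 306, 214, 335, 357 and 130 CPM. PCB52 females 14, 16, 18, 20, 22 and 24 had 457, 549, 461, 448, 367.1 and 432 CPM. The lowest PCB52 value, in the library with the high cerebellar neuron list mean, thus lay just above the highest sham value (0.69 ± 0.22, edgeR adjusted p = 0.290). Without sham female 12 the difference was 0.55 (edgeR adjusted p = 0.433). Col9a2 ran from 14.4 to 24.4 CPM (median 19.9) in sham and 23.6 to 30.3 (median 27.2) in PCB52 females (0.46 ± 0.15, edgeR adjusted p = 0.290).

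Laminin chains of vessel basement membranes had smaller or more uneven differences in these females. Lama5 ran from 6.63 to 16.5 CPM (median 9.48) in sham and from 10.3 to 39.3 (median 19.1) in PCB52 females (1.02 ± 0.34, edgeR adjusted p = 0.299), with PCB52 females 18, 22 and 24 inside the sham range. Lamb2 ran from 38.8 to 79.2 CPM and from 70.6 to 158 (0.54 ± 0.20, edgeR adjusted p = 0.304). The highest Lama5 and Lamb2 values were both in PCB52 female 20. Lamc1 had a log2 fold change of 0.38 ± 0.17 and Lama4 0.30 ± 0.22. Lamb3 (-0.38 ± 0.27) was among the 2 members with a negative value.
Col4a1, the widespread type IV chain, had 0.54 ± 0.20, and Col4a3 and Col4a4 had 0.57 ± 0.33 and 0.68 ± 0.38. Type I and III chains had 0.42 ± 0.27 for Col1a1, 0.42 ± 0.30 for Col1a2 and 0.26 ± 0.27 for Col3a1. Values of the other members lay between 0.04 for Lama1 and 0.89 for Col7a1.

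**Figure D3:**
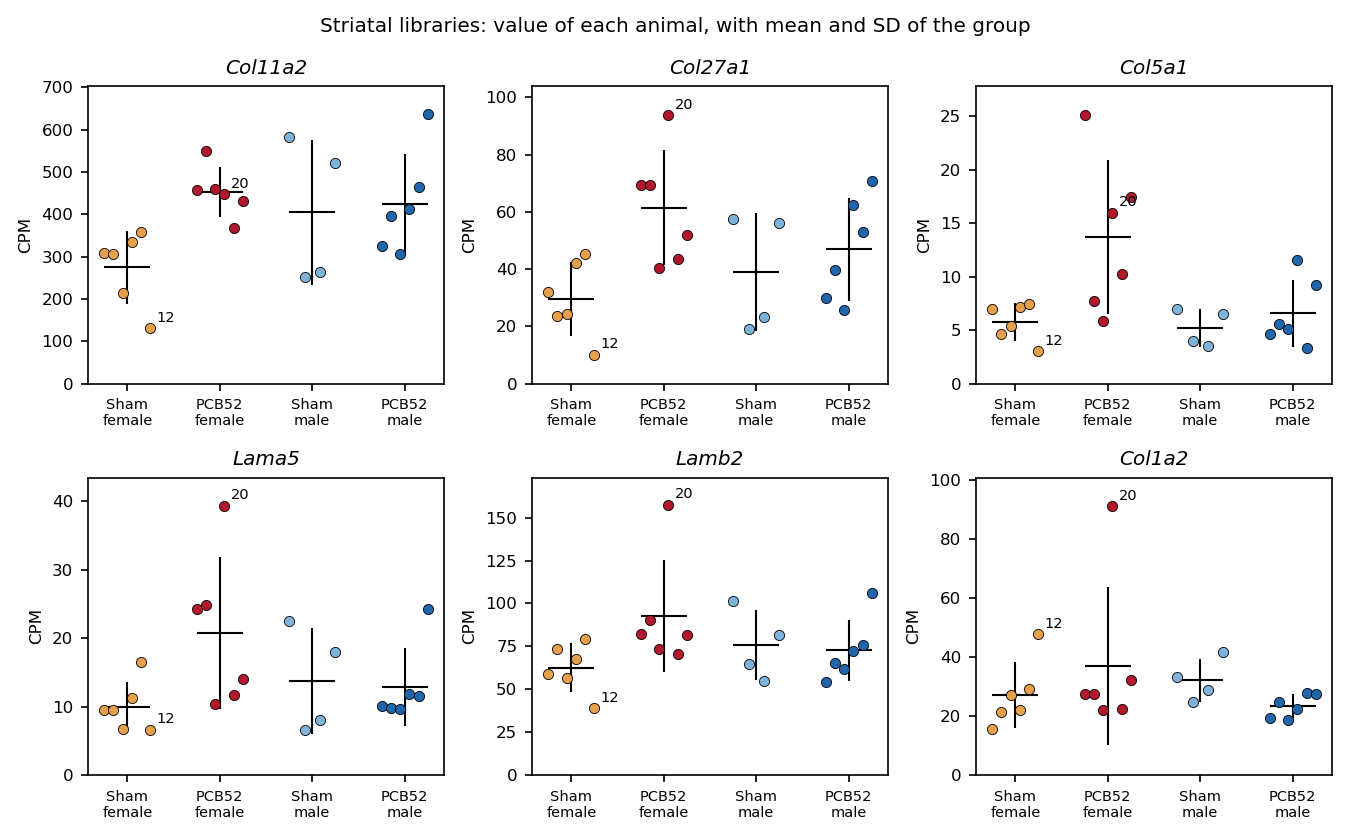
Striatal CPM of 6 members in every library, by group, with the group mean and SD. Points labelled 12 and 20 are sham female 12, at 130 CPM for Col11a2, and PCB52 female 20, at 91.0 CPM for Col1a2.

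Certain libraries lay at the ends of these striatal ranges for many members. Sham female 12, the library with many ribosomal protein transcripts and an endothelial list mean of 4.92 that was the lowest in striatum, held the lowest value of all 22 libraries for 16 of 31 members, Col11a2, Col27a1 and Col5a1 among them. PCB52 female 20, the library with choroid plexus markers (Ttr at 10640 CPM, against a highest value of 82.0 in the other striatal libraries) and the highest meningeal list mean, held the highest value for 10 members. Col8a1, a network collagen left untested, was at 24.9 CPM there and at no more than 0.879 in the other striatal libraries. Choroid plexus markers differed in 9 of 9 tested genes at an unadjusted p under 0.05 between the female groups (median 3.33). Their list mean had a median of 1.68 in PCB52 females and 1.36 in sham females, and reached 8.01 in PCB52 female 20. The median over the members was 0.40 both without sham female 12 and without PCB52 female 20, with 28 and 26 of 31 positive. In the same comparison meningeal fibroblast markers had a median of 0.40 (12 of 13 positive), endothelial markers 0.12 and ribosomal protein genes -0.32. The part of these in the members' values was not tested.

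In male striatum the members showed no common direction. Of 31 members, 18 had a positive log2 fold change, with a median of 0.02 against 0.00 over all genes, and 0 passed even an unadjusted p of 0.05. Sham males 1 and 11 lay above the region's median for 28 and 25 members. Sham males 3, holding transcripts of both sexes, and 9 lay below it for 28 and 26. PCB52 males 13, 15 and 17 lay below it for 28, 18 and 28, and 19, 21 and 23 above it for 18, 24 and 29. With both groups split this way, the median near 0 does not show that PCB52 left males unchanged. Lamb3 had the lowest p (-0.52 ± 0.29, edgeR adjusted p = 1). Its values were 3.81, 1.76, 5.44 and 3.64 CPM in sham males 1, 3, 9 and 11, and 1.75 to 3.14 (median 2.63) in PCB52 males. The groups overlapped. Col1a2 (-0.45 ± 0.33) and Col1a1 (-0.35 ± 0.30) followed. The female minus male effect in striatum was positive for 28 of 31 members (median 0.53, against -0.01 over all genes), and 0 passed the adjusted threshold (0% of all genes). The lowest p was for Lama5 (1.12 ± 0.50, edgeR adjusted p = 0.914), followed by Lamb2 (0.60 ± 0.29). Sham males 1, 3, 9 and 11 had 22.4, 6.59, 8.02 and 17.9 CPM of Lama5, with sham male 3 the lowest of all striatal libraries and sham males 1 and 11 within the PCB52 female range. At an unadjusted p under 0.05 only Lama5 was higher, where 2.31% of all genes were, and as single libraries were left out the count ran from 0 to 9, with 9 without sham male 9.

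The cerebellum did not show the female striatal pattern. Its sham groups include females 8 and 10 and males 9 and 11, libraries holding transcripts of both sexes. Their sex labels are in doubt, and they enter both PCB52 comparisons and the female minus male effect here. In females 10 of 27 tested members were positive, with a median of -0.06 against 0.02 over all genes, and 0 passed an unadjusted p of 0.05. The lowest p was for Col4a3, at 1.45 to 4.87 CPM (median 2.72) in sham and 0 to 3.68 (median 1.63) in PCB52 females (-0.69 ± 0.62, edgeR adjusted p = 1). Lama1 (-0.33 ± 0.34), Col18a1 (0.11 ± 0.15) and Col16a1 (-0.18 ± 0.26) followed. Without the libraries high in ribosomal protein transcripts the median was 0.14 and 19 of 27 were positive. PCB52 female 24 held the highest value of all 22 cerebellar libraries for 9 of 27 members. It had the highest cerebellar meningeal list mean (4.69) and a cortical excitatory neuron list mean of 4.74, against a cerebellar median of 3.03. PCB52 female 20, high in ribosomal protein transcripts, held the lowest value for 8. The part of these libraries was not tested.
In males 24 of 27 members were negative, with a median of -0.20 against 0.01 over all genes. At an unadjusted p under 0.05, 1 was higher and 2 lower, where 14.3% of all genes passed in either direction. Sham male 1, the cerebellar library with choroid plexus markers, held the highest value of all 22 cerebellar libraries for 10 of 27 members. All 9 choroid plexus markers tested had a negative value in this comparison (median -1.23, 5 at an unadjusted p under 0.05). Without that library the members' median was -0.15, with 5 of 27 positive. PCB52 males 15 and 23, both high in ribosomal protein transcripts, lay below the region's median for 19 and 20 of 27 members. PCB52 males 13, 19 and 21 did so for 13, 17 and 18. Lama5 was at 8.62, 4.26, 4.85, 2.13 and 4.24 CPM in sham males 1, 3, 7, 9 and 11, and at 3.66, 0.780, 2.20, 0.862 and 1.03 in PCB52 males 13, 15, 19, 21 and 23. Both PCB52 males 13 and 19 lay within the sham range (-1.46 ± 0.48, edgeR adjusted p = 0.313). They did so only through sham male 9, at 2.13 CPM, a library holding transcripts of both sexes. The next lowest sham value was 4.24 CPM in male 11, also such a library. As single libraries were left out, the counts ran from 0 to 1 higher and from 1 to 4 lower, with 4 without PCB52 male 13. The highest Lama5 value, 8.62 CPM, was in sham male 1, and without it the difference was -1.15 (edgeR adjusted p = 0.61). It was -1.13 (edgeR adjusted p = 0.997) without the ribosomal-high libraries, and -1.93 (edgeR adjusted p = 0.118) without PCB52 male 13.
Lamb3 went the other way, at 1.49, 2.72, 1.25, 1.70 and 2.19 CPM in the sham males and 2.48, 3.25, 3.03, 2.30 and 3.40 in the PCB52 males (0.67 ± 0.27, edgeR adjusted p = 0.313). Col5a2 was at 27.5, 18.8, 24.3, 18.3 and 19.7 CPM in the sham males and 19.5, 10.4, 21.04, 11.6 and 9.61 in the PCB52 males (-0.55 ± 0.26). Groups overlapped for both. Lamb2 had -0.51 ± 0.26. The female minus male effect in cerebellum was positive for 21 of 27 members (median 0.24, against -0.01 over all genes), and 0 passed (0% of all genes), with the lowest p for Lama5 (1.29 ± 0.64, edgeR adjusted p = 0.774) and Lamb3 (-0.62 ± 0.36).

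**Figure D4:**
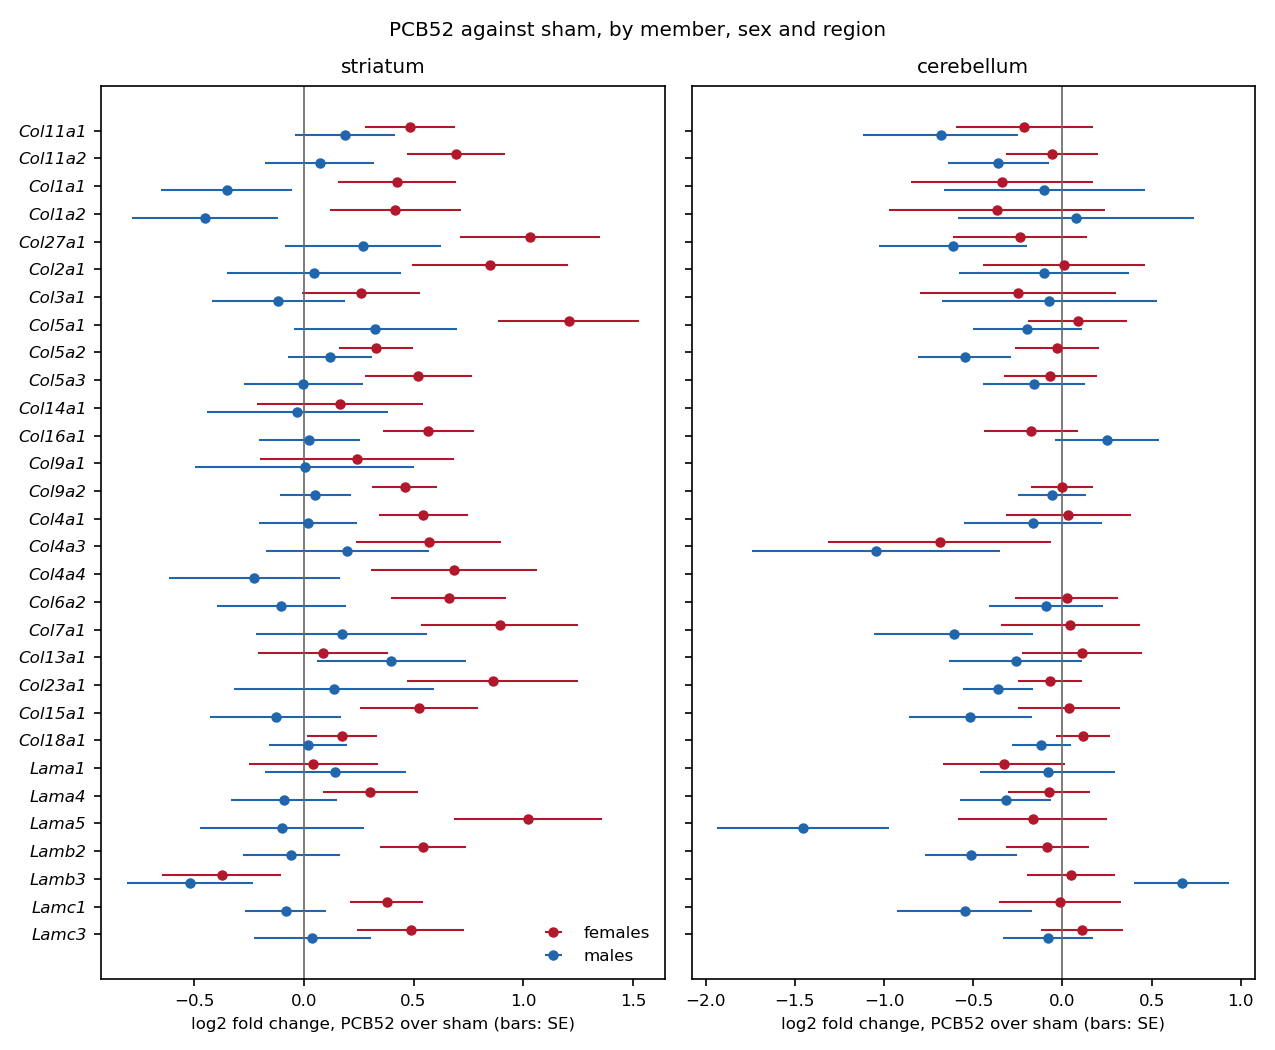
Log2 fold change of each member, PCB52 over sham, with the SE of the fit, females in red and males in blue, striatum left and cerebellum right. A laminin is not drawn. In female striatum 29 of the 30 points drawn lie to the right of 0, and in male cerebellum 24 of 27 lie to the left. Members without a point on the right did not pass the filter on low counts in cerebellum.

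Many members were low in the libraries rich in ribosomal protein transcripts. In cerebellum all 4 such libraries were PCB52 animals, and all 4 lay below the region's median for 16 of 27 members. Col27a1 was at 23.5 to 27.6 CPM in them and at 30.1 to 134 in the other 18 libraries. Col11a1 was at 0.381 to 1.96 CPM against 2.24 to 5.65 in cerebellum among the rest. Lamb3 alone was at or above the median in all 4, at 2.54 to 3.40 CPM. In striatum sham female 12 lay below the median for 25 of 31 members. The ribosomal genes themselves had a median log2 fold change of 0.75 in male cerebellum (27 of 27 positive) and 0.28 in female cerebellum. In males 15 were higher at an unadjusted p under 0.05, as were 1067 of all 11690 genes tested. That list was chosen after seeing the data, and PCB52 males 15 and 23 are among the libraries high in it. What made these libraries differ was not tested.

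**Figure D5:**
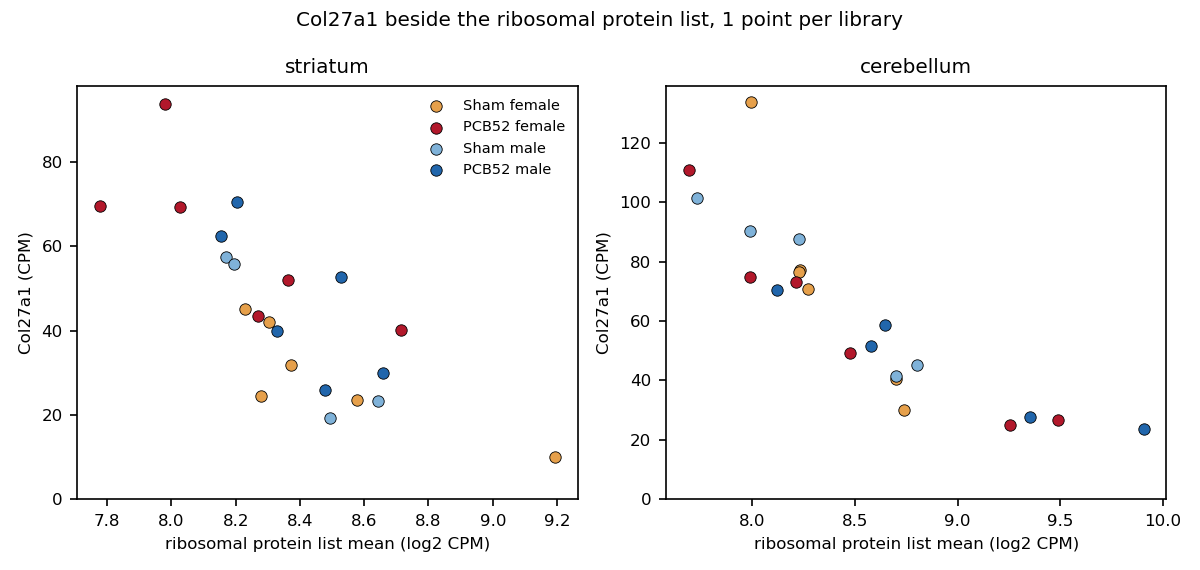
Col27a1 (CPM) against the mean log2 CPM of cytosolic ribosomal protein genes, 1 point per library, coloured by group. Col27a1 was lowest where the list mean was above 9, at 10.1 CPM in striatum and 23.5 to 27.6 CPM in cerebellum.

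The striatal minus the cerebellar PCB52 effect, averaged over the sexes, was positive for 30 of 32 members (median 0.35, against -0.01 over all genes), and 0 passed the adjusted threshold (0% of all genes). It uses the same libraries as the comparisons above. At an unadjusted p under 0.05, 9 were higher and 1 lower, where 4.51% of all genes were higher and 13.8% lower. The lowest p values were for Lamb3 (-0.82 ± 0.27) and Lama5 (1.26 ± 0.41), both with an edgeR adjusted p of 0.268. Without the ribosomal-high libraries the counts were 1 and 0, and they were 4 and 1 both without the libraries of both sexes and without those with choroid plexus markers. The count of 9 was 5 without striatum sham male 9 and 6 without striatum PCB52 male 23.

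No member passed the adjusted threshold between sham females and males. The sex labels of this comparison are in doubt for striatum male 3, cerebellum females 8 and 10 and cerebellum males 9 and 11, the libraries holding transcripts of both sexes. Without them 0 members passed as well, and the members' median was -0.34 in striatum and -0.20 in cerebellum. In striatum 0.0329% of all genes passed, and 0 of 31 members did. Their median log2 fold change, female over male, was -0.25 (0.01 over all genes), with 27 of 31 negative and 1 lower at an unadjusted p under 0.05, as were 1.26% of all genes. The lowest p was for Col11a2, at 130 to 357 CPM in females and 583, 251, 264 and 521 in males 1, 3, 9 and 11 (-0.55 ± 0.25, edgeR adjusted p = 1), then Col4a4 (-0.81 ± 0.41). These sham females are the ones the PCB52 females were compared with. In cerebellum 0 of 27 passed (0% of all genes), the median was -0.05 (0.00 over all genes, -0.001 before rounding), 0 passed an unadjusted p of 0.05, and the lowest p values were for Col16a1 (0.45 ± 0.28) and Col18a1 (-0.19 ± 0.16).

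Genes that build, bind and cut these proteins were also read. Between the sham regions, where 34.3% of all genes were higher in striatum and 35.5% lower, 8 of 11 receptors were higher in striatum and 2 lower, as were 8 and 1 of 9 basement membrane partners, 9 and 8 of 24 collagen synthesis and assembly enzymes, and 9 and 4 of 15 matrix proteases and inhibitors. The laminin receptor chain Itga6 was higher in striatum (1.28 ± 0.17) and Itga7 lower (-2.95 ± 0.22). Agrn, a proteoglycan of vessel basement membranes, was higher (2.38 ± 0.21). In no PCB52 comparison did a gene of these 4 lists pass the adjusted threshold. In female striatum, where 49.6% of all genes were positive, the 11 receptors all had positive values (median 0.21). The lowest p values among them were for Itga7 (0.61 ± 0.14, edgeR adjusted p = 0.222) and the collagen receptor Ddr2 (0.82 ± 0.31). Of 9 partners 6 were positive, led by Fbln1 (0.34 ± 0.13) and Agrn (0.38 ± 0.16). Of 23 enzymes 21 were positive, led by the prolyl hydroxylases P3h2 (1.31 ± 0.30, edgeR adjusted p = 0.222) and P3h3 (0.42 ± 0.12). Of 15 proteases and inhibitors 12 were positive, led by Mmp14 (0.96 ± 0.32) and Adamts1 (0.85 ± 0.32). PCB52 female 20 had the highest striatal mean for each of these 4 lists, such as 4.726 for receptors. Sham female 12 had the lowest for receptors (3.797) and enzymes (3.359). The part of these libraries in the list values was not tested.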

How the data were processed

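Gene counts came from 44 libraries of rat striatum and cerebellum, 1 table per region. The labels list 47 samples. Sham male 5 (both regions) and sham male 7 (striatum) had no column and were not analysed here. The authors deposited whole-number counts per gene, not normalized, under numeric gene identifiers. The submitters' processing notes name FastQC, HISAT2 and the rat build rn6. The read counter and any use of strand were not given in the sources used, and reads of overlapping genes such as Col1a1 and Sgca cannot be told apart. Per the labels' protocols, libraries came from poly(A) capture or ribosomal RNA removal, without saying which was used. A reference table of GRCr8 gave symbols for 15230 of 15319 identifiers (99.42%), and no transcript lengths were used, so levels of different genes are not compared.

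Counts were tested with edgeR 4.0.16 (R 4.3.3; quasi-likelihood, robust, TMM, default filter on low counts), two-sided, with Benjamini-Hochberg adjustment over all genes and a threshold of 0.05. Each region was fitted with 4 group means (12142 genes in striatum, 11690 in cerebellum), and both regions with 8 (12446 genes). Members tested numbered 31, 27 and 32. CPM divides counts by the library total. List means use TMM and a prior count of 2. A library was called as holding both sexes where Xist and Eif2s3y both exceeded 3 CPM, and as holding other tissue where a choroid plexus or meningeal list mean lay over 2 above its region's median. Replicates are separate animals. All 101 pairs of libraries within groups differed by more than sampling noise (chi-square divided by its degrees of freedom at least 3.49). The regions are paired by animal per the labels. Deviations of the same animal's samples from the group means correlated with a median of 0.1 (-0.451 to 0.566) over 21 animals, and the block by animal was an alternative. The procedure was also run on simulated counts drawn independently for each gene and library. They held no shifts shared by many genes of a library, so that run does not cover the libraries that stood apart.

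Alternatives were DESeq2 1.42.0, limma 3.58.1 (voom with quality weights), RLE size factors, no filter, only the groups compared, other CPM limits for membership, and leaving out each library or the libraries that stood apart. Leaving out libraries with a ribosomal list mean above 9 was chosen after seeing the data, as were that list and the cortical list. Members and gene lists were chosen with earlier results of these data known. Named members are the 3 of highest mean CPM in each region, the 4 of lowest p in each PCB52 comparison, the 2 of lowest p in interactions and sex comparisons, and in the region comparison up to 6 of largest change per direction and those that did not pass, with partner chains. Other members named were chosen after their values were seen. A member that these rules name is not reported here by name or drawn, and stays in the counts and medians.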

Additional observations from a re-analysis of the deposited data

Results flagged for a closer look

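Among 208 group and gene combinations tested, over the 26 named members, 19 had 1 library far from the others of its group, where the gap to the nearest library was a large share of the group's range. For independent, normally distributed values chance gives about 1 in 20. These members share libraries, so 19 of 208 is not read against that rate. No explanation was weighed, and all values are CPM.

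Striatum PCB52 female 20, the library with choroid plexus markers, was highest of its 6 for 5 members: Col1a1 at 25.63 (others up to 11.26), Col1a2 at 91.01 (others up to 32.16), Col3a1 at 34.27 (others up to 11.41), Col13a1 at 4.896 (others up to 2.411) and Lamb2 at 157.7 (others up to 90.65). Striatum PCB52 female 14 was highest for Col23a1 at 16.18 (others up to 6.624), Col9a1 at 3.694 (others up to 1.892) and Lama1 at 7.916 (others up to 4.099). Striatum PCB52 male 23 was highest for Col11a1 at 50.21 (others up to 34.84) and Lama5 at 24.26 (others up to 11.85).

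In sham striatum, female 12 was lowest for Col4a3 at 1.737 (others from 7.424), female 4 was lowest for Col23a1 at 1.688 (others from 3.344), female 10 was highest for Col4a4 at 2.018 (others up to 0.7672) and male 11 was highest for Col18a1 at 103.3 (others up to 73.14). In cerebellum, PCB52 female 24 was highest for Col1a2 at 128.9 (others up to 52.72) and Lama1 at 5.058 (others up to 2.442), PCB52 male 19 was highest for Col16a1 at 44.28 (others up to 30.3), sham male 1 was highest for Col4a4 at 2.377 (others up to 0.7305) and sham male 3 was lowest for Col18a1 at 85.04 (others from 104.8).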

How the results depend on the processing

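The count of members that differed between the sham regions was 25, and 23 to 27 under the alternatives run: 24 with the animal as a replicate block, 23 without the libraries holding transcripts of both sexes, and 24 to 27 as single libraries were left out. Col1a2, Col18a1, Col1a1 and Col4a4 crossed the threshold under some of them. Col1a1 passed with limma (-0.61, adjusted p = 0.0344), and Col4a4 with limma (0.91, adjusted p = 0.00163) and RLE size factors (0.72, adjusted p = 0.0476). Under the block by animal, the PCB52 effect in striatum minus that in cerebellum kept 0 members past the threshold, with a median of 0.48.

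In every PCB52, interaction and sex comparison 0 members passed under each alternative run, so those results say nothing of stability. The members' median in female striatum ran from 0.40 to 0.57 as single libraries were left out. In female cerebellum it was -0.06, and 0.14 without the libraries high in ribosomal protein transcripts. The cause was not tested. No result changed sign past the threshold. A fit with only the groups compared was not run separately for the interactions and the region difference of PCB52 effects, which already use all groups. Members with few reads, such as Col9a1 in cerebellum, limit what depth can show.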
